A study of Mus musculus with 2 samples.

Results

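Stab1, the gene of stabilin 1, and 9 other receptor genes of macrophages were followed in chromatin-associated RNA of mouse bone marrow-derived macrophages. The 10 genes were taken by their GENCODE M21 symbols from 55536 annotated genes, and all 10 were found by gene identifier in the gene tables and, with their 67 annotated transcripts, in both kinds of transcript table. They are Stab1, Stab2, Lrp1, Msr1, Marco, Cd36, Scarb1, Cd68, Olr1 and Adgre1. Adgre1 encodes the F4/80 antigen, an adhesion receptor used as a macrophage marker, and is not itself a scavenger receptor.

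Both libraries came from C57BL/6J macrophages at 0 minutes of stimulation with lipid A at 100 ng/ml. Lipid A is the membrane anchor of bacterial endotoxin and is sensed through Toll-like receptor 4. Total RNA of the chromatin fraction, which holds transcripts still tied to their template, was sequenced after removal of ribosomal RNA, from 250 ng in replicate 1 and 500 ng in replicate 2. These 2 biological replicates form 1 group with no second condition, so each level below is a description with no test. The labels give both the same donor entry, so separate animals are not shown, and the spread between the replicates may be technical. Library depth over gene entries was 10933708 expected counts for replicate 1 and 14168886 for replicate 2. Of 10 macrophage markers, 10 reached 1 TPM (a length-normalised level scaled to a fixed sum per library) in both replicates, led by Lyz2 at 176 ± 20.6 and Csf1r at 173 ± 16.9 TPM (SD, n = 2).

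Scavenger receptors are surface proteins that bind modified lipoproteins, other polyanions, dying cells and microbial surfaces and carry them into endosomes and lysosomes. They are grouped in classes by the build of their outer parts rather than by common descent, and most bind several unrelated ligands. In macrophages they clear debris and take up cholesterol, and their uptake of oxidised low-density lipoprotein makes the foam cells of atherosclerosis.

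Stab1 stood first among the 10 genes, Lrp1 second, and Marco and Olr1 were close to 0. Of the 10 genes, 8 reached 1 TPM in both replicates, beside 46.7% of the 22015 nuclear protein-coding genes. The median level was 39.1 ± 9.33 TPM over the 10 genes and 0.705 TPM over all protein-coding genes. The members together held 0.632% of all gene counts in replicate 1 and 0.504% in replicate 2. Stab1 and Lrp1 made up 91.3% and 90.4% of those counts. In bulk RNA, fewer cells that express a gene and less RNA of it per cell cannot be told apart.

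**Figure D1:**
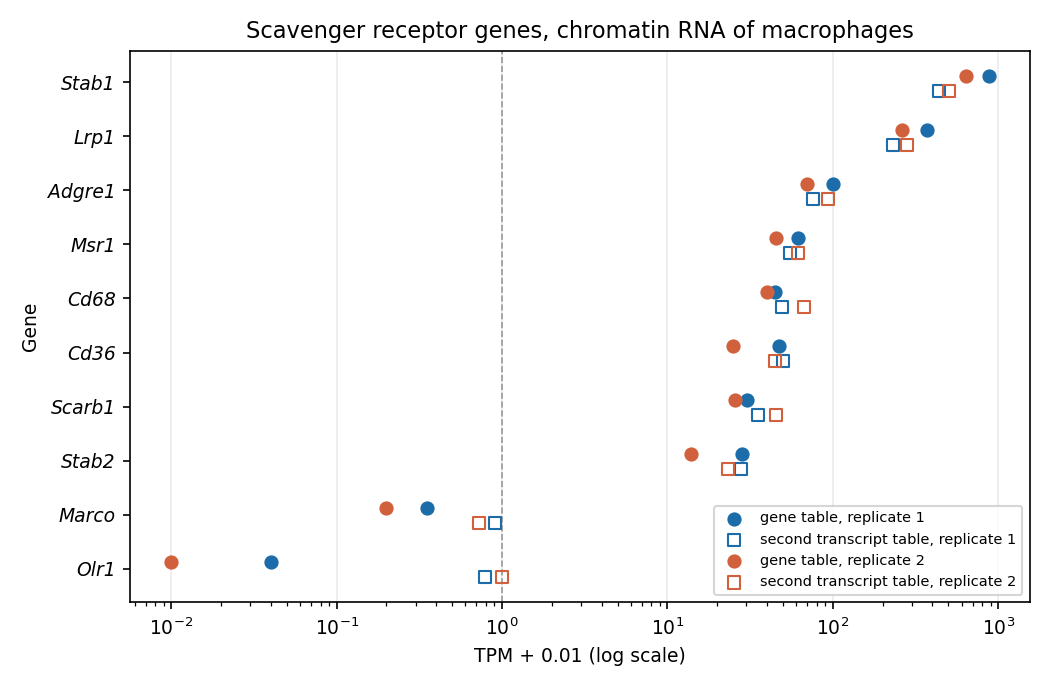
TPM of the 10 receptor genes on a log axis (0.01 added so that a 0 can be drawn), with filled circles for gene table values and open squares for second transcript table values, 1 symbol per replicate, and a dashed line near 1 TPM. Stab1 lies at 878 and 636 TPM and Lrp1 at 369 and 263 TPM in the gene table, while Marco and Olr1 stay below 1 TPM in both kinds of table.

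The promoter windows below are shown for the pair of stabilin genes, which stood at opposite ends of the detected levels, and for Cd68 and Olr1, the members whose windows hold the AP-1 motif although 1 was detected and the other was not. Each window runs from 250 bases before to 50 bases after the RefSeq gene start on GRCm38.p6, 5′ to 3′ on the gene's minus strand, and capitals mark GAGGAA (the core bound by PU.1 and other ETS factors) or TGACTCA (AP-1) on either strand.
Stab1, chr14:31168592-31168891: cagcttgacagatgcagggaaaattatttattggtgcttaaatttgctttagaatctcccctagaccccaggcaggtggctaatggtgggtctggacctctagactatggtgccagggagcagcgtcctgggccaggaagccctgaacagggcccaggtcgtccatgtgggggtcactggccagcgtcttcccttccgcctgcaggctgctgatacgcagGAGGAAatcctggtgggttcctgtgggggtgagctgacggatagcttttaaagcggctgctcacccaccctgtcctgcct
Stab2, chr10:87007893-87008192: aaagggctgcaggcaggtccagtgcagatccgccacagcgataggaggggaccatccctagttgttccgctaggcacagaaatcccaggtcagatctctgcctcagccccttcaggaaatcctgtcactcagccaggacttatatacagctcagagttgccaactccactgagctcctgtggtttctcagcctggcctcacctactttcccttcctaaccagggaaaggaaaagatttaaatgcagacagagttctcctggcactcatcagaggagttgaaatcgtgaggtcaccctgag
Cd68, chr11:69666121-69666420: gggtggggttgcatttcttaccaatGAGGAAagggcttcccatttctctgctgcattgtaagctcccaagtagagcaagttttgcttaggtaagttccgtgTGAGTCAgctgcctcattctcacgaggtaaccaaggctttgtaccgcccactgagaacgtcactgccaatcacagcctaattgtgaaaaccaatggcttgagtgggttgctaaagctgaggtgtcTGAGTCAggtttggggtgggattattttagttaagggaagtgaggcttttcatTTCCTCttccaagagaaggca
Olr1, chr6:129507116-129507415: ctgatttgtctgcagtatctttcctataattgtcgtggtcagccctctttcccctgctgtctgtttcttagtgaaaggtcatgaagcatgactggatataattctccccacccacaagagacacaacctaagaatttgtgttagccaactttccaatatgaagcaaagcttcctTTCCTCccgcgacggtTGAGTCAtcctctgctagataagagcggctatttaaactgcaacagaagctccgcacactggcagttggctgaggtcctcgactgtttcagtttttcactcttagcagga

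Windows were matched by symbol for 7 of the 10 genes, and those of Msr1, Scarb1 and Adgre1 were not used here. The RefSeq start site in the Cd36 window lies 52905 bases from the start of the GENCODE gene, so that window does not describe the gene's outermost start. It lies near the starts of Cd36-201 and Cd36-206, both 53.1 kb from the gene start, which held 45.4% and 24.1% of the gene's counts. GAGGAA, or its reverse complement TTCCTC, was found in 4 of the 7 windows (Stab1, Cd68, Marco and Olr1) and in 28.3% of all 32851 windows of that length. Counted from the start site as 0, its first base lay at -30 in Stab1, at -225 and 30 in Cd68, at -146 in Marco and at -76 in Olr1. TGACTCA, or TGAGTCA on the other strand, was found in 2 of the 7 windows, at -149 and -24 in Cd68 and at -60 in Olr1, and in 5.20% of all windows. TATAAA (or TTTATA), the TATA box, and the palindrome CACGTG, an E-box, were in 0 of the 7 windows and in 13.6% and 7.15% of all windows. None of these 4 motifs lies within another, and a match is a run of letters, not a shown binding site. Guanine and cytosine made up 57.3% of the Stab1 window, 53.0% of the Stab2 window and 67.7% of the Lrp1 window, beside a median of 52.7% over all windows. The windows of Stab1 and Cd68, both detected, hold GAGGAA, as do those of Marco and Olr1, at almost no RNA. The windows of Lrp1, Stab2 and Cd36, all detected, hold none of the 4 motifs. A link of motif to level was not tested.

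Stab1 encodes a very large receptor with repeated fasciclin and EGF-like domains, found on some tissue macrophages and on sinusoidal endothelium, that takes up SPARC and acetylated low-density lipoprotein and shuttles between endosomes and the trans-Golgi network. The gene (ENSMUSG00000042286.13) spans chr14:31139013-31168641 on mm10, minus strand, or 29.6 kb with 69 exons in its longest coding transcript, for 2571 residues. Stab1 held 31859 expected counts in replicate 1 and 33172 in replicate 2. Its level was 878 and 636 TPM in those replicates, a mean of 757 ± 171 TPM and rank 7 of 22015 protein-coding genes. Its nearest genes by level were Psap, the saposin precursor, at 835 ± 136 TPM, and Hnrnpa2b1, an RNA-binding protein gene, at 818 ± 5.54 TPM just above, with Ddx5, an RNA helicase gene, at 757 ± 81.5 TPM and Zeb2, a repressor gene, at 753 ± 108 TPM just below. All 4 means lay between the replicates of Stab1, so its rank among them is not settled by 2 libraries.

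Most Stab1 reads were assigned to the full-length coding transcript. Stab1-201 (7999 bases) held 23203 and 23371 counts in replicates 1 and 2. The 3 coding transcripts together held 71.7% ± 1.73 of the gene's counts, and 9 annotated retained-intron transcripts held 28.1% ± 1.73 (SD, n = 2). The TPM of the gene drew on its transcripts in other proportions, because TPM divides by length. Retained-intron transcripts held 53.3% ± 2.46 of the gene's TPM, and the coding transcripts held 32.6% ± 2.53. Stab1-202, a processed transcript of 242 bases that lies wholly inside exons of Stab1-201, held 55.9 and 56.4 counts, or 0.176% and 0.170% of the gene's counts. At an effective length of 43.8 bases those reads gave 123 and 89.9 TPM, or 14.0% and 14.1% of the gene's TPM. In the second transcript table it held 0 counts in both replicates. Without transcripts under 100 effective bases, an alternative added after seeing the data, Stab1 stood at 650.4 ± 147 TPM and remained above Lrp1.

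Stab2, the closest relative of Stab1 in build, encodes the hyaluronan receptor of sinusoidal endothelium in liver, spleen and lymph node. It lies at chr10:86841198-87008025, minus strand (ENSMUSG00000035459.18), and also has 69 exons in its longest coding transcript, for 2559 residues, but spans 166.8 kb. Stab2 held 509 and 426 counts and stood at 28.2 and 13.9 TPM in replicates 1 and 2, a mean of 21.1 ± 10.2 TPM and rank 3092. Every value of Stab1 was far above every value of Stab2. The ratio of their mean levels was 36.0 on the TPM scale and 70.6 on counts per kb of the longest coding transcript. In the second transcript table the ratio of mean TPM was 18.5.

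The reads of Stab2 were unevenly placed among its transcripts. Stab2-205, annotated as a target of nonsense-mediated decay, held 377 and 336 counts, or 76.5% ± 3.39 of the gene's counts. The coding transcript Stab2-201 (8228 bases) held 96.0 and 69.0 counts, or 17.5% ± 1.89. Stab2-205 is 3502 bases long and shares 3499 of them with Stab2-201, in the 3′ part of the gene beginning 117 kb from its start. Per kb of their own length, Stab2-205 held 102 ± 8.31 counts and Stab2-201 held 10.03 ± 2.33. The 4729 exon bases of Stab2-201 outside Stab2-205 are 57.5% of that transcript, so even if all of its reads fell there they would come to 20.3 and 14.6 counts per kb. The processed transcripts Stab2-202, Stab2-203 and Stab2-204, which lie nearer the gene start, had no read in either replicate or kind of table. The map of stabilin transcripts thus shows most Stab2 reads on a model that begins 117 kb into a gene of 166.8 kb.

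**Figure D2:**
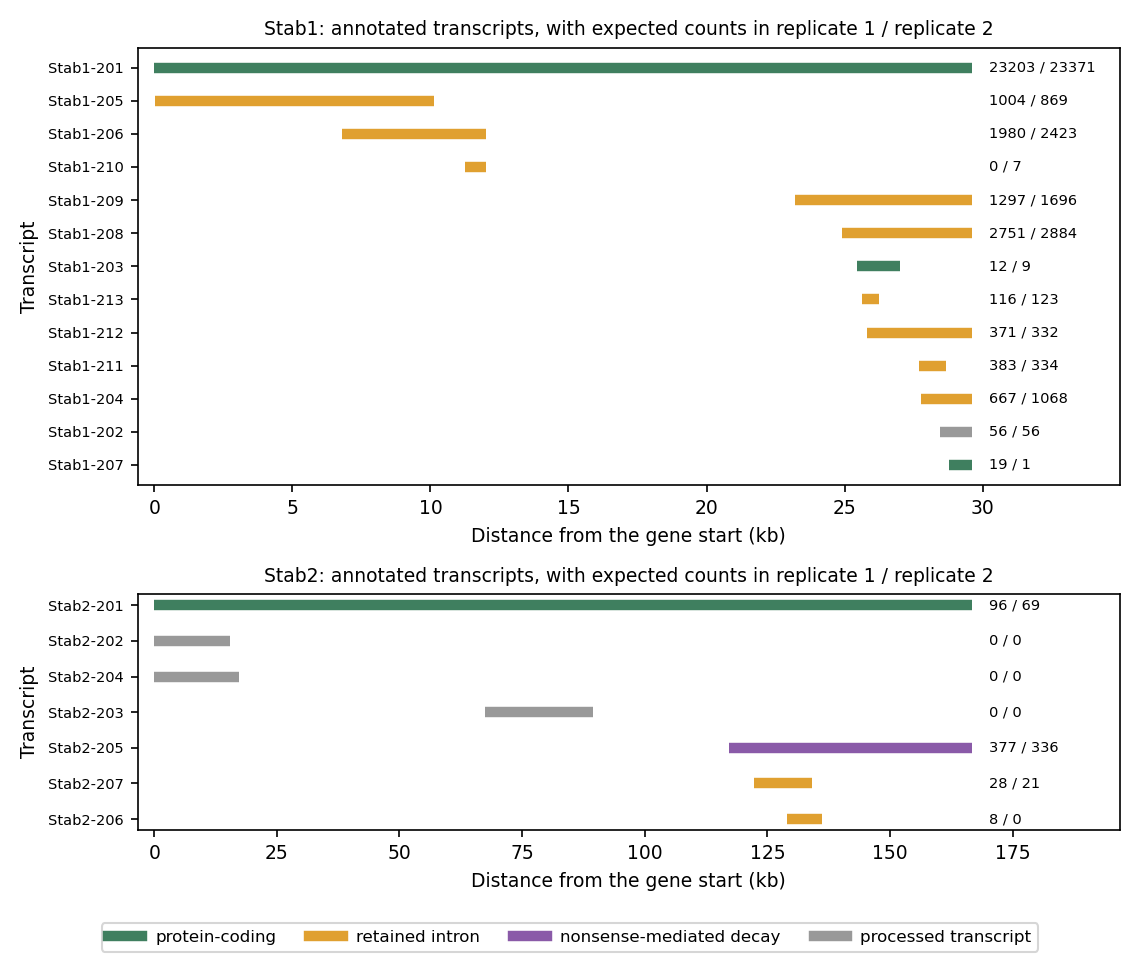
Annotated transcripts of Stab1 (upper) and Stab2 (lower) as lines from first to last base, by distance from the gene start in kb, coloured by class, with expected counts in replicate 1 and replicate 2 at the right. Stab1-201 holds 23203 and 23371 counts over the whole gene, while Stab2-205, which starts 117 kb into the gene, holds 377 and 336 counts and Stab2-201 holds 96.0 and 69.0.

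Markers of sinusoidal endothelium, the known site of Stab2, were mostly low in the gene table. Of 8 such markers 2 reached 1 TPM there in both replicates, and Lyve1, Clec4g and Cdh5 held 0 counts. Of the 8, 3 did so in the second kind of table, the added gene being Pecam1, an adhesion molecule gene also found on leukocytes, at 4.88 and 6.64 TPM, against 0.33 and 0.19 TPM in the gene table. Lyve1 and Cdh5 held 0 counts in both kinds of table. In the gene table the summed level of the list was 220 TPM in replicate 1 and 243 TPM in replicate 2, of which Fcgr2b, an inhibitory Fc receptor gene that macrophages also express, made up 218 and 239 TPM. Kdr, a vascular growth factor receptor gene, stood at 1.93 and 3.16 TPM in replicates 1 and 2. Gm16268, an antisense gene that overlaps Stab2 by 33757 bases, held 22.2 and 17.3 counts in replicates 1 and 2. The overlapping Gm16270 held 1 and 3 counts, and Gm16280, Gm16271 and Gm16269 held 0. The labels do not say whether strand was kept, so reads of Stab2 and of these genes cannot be told apart. Stab1 overlaps another gene only at its last bases, by 112 bases with Nt5dc2 (156 and 253 counts) on the opposite strand.

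Lrp1 encodes a giant endocytic receptor that takes up apolipoprotein E remnants, alpha-2-macroglobulin complexes and many proteases. It lies at chr10:127538161-127621148, minus strand (ENSMUSG00000040249.15), spans 83.0 kb and has 89 exons in its longest coding transcript, for 4545 residues. Lrp1 held 31251 and 31354 counts, almost as many as Stab1. Its level was 369 and 263 TPM in replicates 1 and 2, a mean of 316 ± 74.97 TPM and rank 45. The ratio of Stab1 over Lrp1 was 1.04 by RPM (counts scaled to library depth only), 1.93 by counts per kb of the longest coding transcript and 2.40 by TPM. Stab1 was thus above Lrp1 in both replicates on each scale, and by far less before length was taken into account.

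The coding transcripts of Lrp1 held 94.3% ± 0.436 of its counts. Lrp1-201 (14888 bases) alone held 28939 and 28844 counts. Its 5 retained-intron transcripts held 5.70% ± 0.447 of the counts but 42.0% ± 2.04 of the TPM. Gm16217, an antisense gene inside Lrp1, held 51 and 64 counts.

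Of 10 receptors related to Lrp1, 7 were detected, and the list median was 8.09 TPM in replicate 1 and 6.395 TPM in replicate 2. Lrp12 was highest at 131 ± 0.891 TPM, followed by Lrp6, a Wnt co-receptor gene, at 56.4 ± 0.601 TPM, Lrp5, its close relative, at 11.6 ± 1.62 TPM, and Sorl1, a sorting receptor gene, at 10.9 ± 2.26 TPM. Lrp1 in its lower replicate, 263 TPM, was above each of them. Lrp1b and Lrp2 (megalin) held 0 counts in the gene table, although in the second kind of table Lrp2 held 167 and 227. Of 10 partners, chaperones and ligands of these receptors, 7 were detected. The highest were Apoe, the apolipoprotein E gene and a ligand of Lrp1, at 91.8 ± 33.2 TPM, Lyn, a Src-family kinase gene, at 72.7 ± 2.45 TPM, Snx17, a sorting nexin gene that recycles Lrp1, at 29.9 ± 3.47 TPM, and Furin, the protease that cleaves the Lrp1 precursor, at 25.1 ± 2.79 TPM. A2m, an alpha-2-macroglobulin gene, and Gulp1, an adaptor gene that binds the tails of Lrp1 and stabilins, held 0 counts in both replicates, and the second transcript table gave Gulp1 24.1 and 58.0.

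Msr1 and Marco are the class A receptors of the set, trimers with a collagen-like stalk that bind acetylated lipoprotein and bacteria. Msr1 (ENSMUSG00000025044.16, chr8:39581685-39642673, minus strand) held 1535 and 1783 counts. Its level was 61.6 and 45.4 TPM in replicates 1 and 2, a mean of 53.5 ± 11.4 TPM and rank 1060. Marco (ENSMUSG00000026390.7, chr1:120474538-120505024, minus strand) held 6 and 5 counts, with exact Poisson 95% intervals of 2.20 to 13.1 and 1.62 to 11.7 counts. Marco stood at 0.34 and 0.19 TPM, rank 12087. Nearly all reads of the pair were thus those of Msr1 in both replicates. The ratio of mean TPM of Msr1 over Marco was 202 in the gene table and 72.4 in the second transcript table, where Marco held 16 counts in each replicate.

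Of the Msr1 transcripts, Msr1-202 held 857 and 1042 counts and Msr1-201 held 200.1 and 183 in replicates 1 and 2. Msr1-204, a retained-intron transcript that covers the first 12.4 kb of the gene, held 473 and 558 counts, or 31.1% ± 0.361 of the gene's counts. Of other scavenger receptors, 9 of 13 found in the annotation were detected, and Scart1 was not found by that symbol. Mrc1, the mannose receptor gene, was highest at 116 ± 0.665 TPM, followed by Cd5l, a soluble scavenger protein gene, at 39.0 ± 11.5 TPM, Scarb2, a lysosomal relative of Cd36 and Scarb1, at 19.8 ± 2.81 TPM, and Cxcl16, a membrane-bound chemokine gene, at 10.9 ± 0.997 TPM. Scara3 and Scara5 held 0 counts in the gene table, but in the second kind of table Scara5 held 172 and 214. The list median was 6.73 TPM in replicate 1 and 6.95 TPM in replicate 2, beside 45.9 and 32.7 TPM over all 10 members. Mrc1 was above every member but Stab1 and Lrp1 in each replicate.

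**Figure D3:**
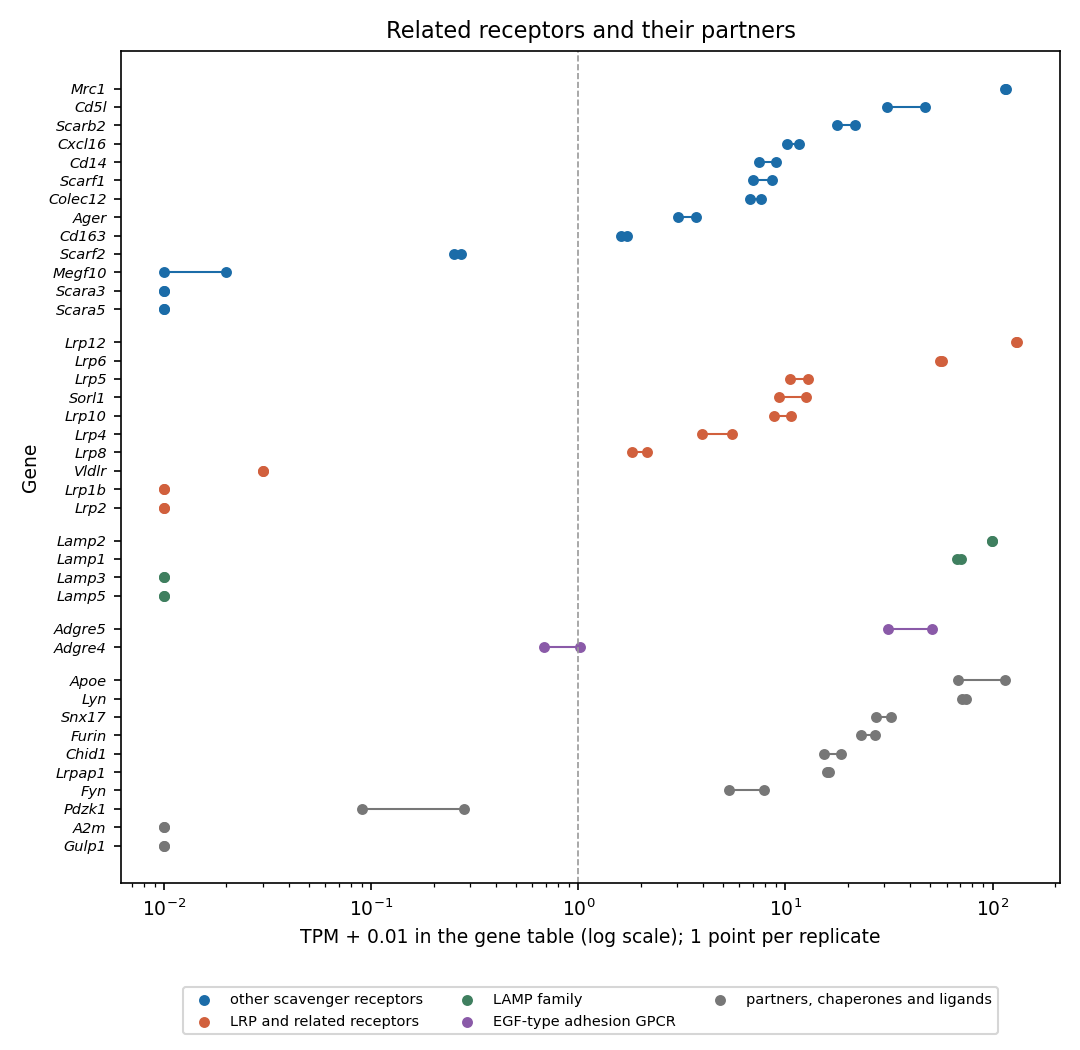
TPM in the gene table (0.01 added, log axis, 1 point per replicate joined by a line) of related receptors, families and partners, with a dashed line at 1. Mrc1 at 116 TPM, Lrp12 at 131 TPM, Lamp2 at 99.5 TPM, Adgre5 at 41.1 TPM and Apoe at 91.8 TPM head their lists, and none reaches Lrp1 at 316 TPM.

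Cd36 and Scarb1 are the class B receptors, which cross the membrane at both ends. Cd36 takes up oxidised lipoprotein and long-chain fatty acids, and Scarb1 exchanges cholesterol esters with high-density lipoprotein. Cd36 (ENSMUSG00000002944.15, chr5:17781690-17888801, minus strand) held 931 and 826 counts and stood at 47.3 and 24.8 TPM, a mean of 36.0 ± 15.8 TPM and rank 1787. Scarb1 (ENSMUSG00000037936.15, chr5:125277087-125341094, minus strand) held 638 and 799 counts and stood at 30.4 and 25.8 TPM, a mean of 28.1 ± 3.30 TPM and rank 2326. Cd36 was the higher of the pair in replicate 1 and the lower in replicate 2, so they did not differ beyond their spread.

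All 6 annotated transcripts of Cd36 are coding, and the reads were split among Cd36-201 (418 and 379 counts), Cd36-206 (218 and 205) and Cd36-204 (196 and 182). In Scarb1, by contrast, retained-intron transcripts held 78.4% ± 0.880 of the counts. The longest coding transcript, Scarb1-201, held 84.0 and 120 counts. Scarb1-207, a retained-intron transcript that begins 54.4 kb from the gene start, held 232 and 274, Scarb1-209 held 123 and 201, and Scarb1-211 held 113 and 128. Gm42633, an unverified gene within Scarb1 on the same strand, held a further 111 and 127 counts.

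Of the markers of other cells that carry Cd36, those of adipocytes were mostly low and those of platelets were in part detected. Of 5 adipocyte markers only Fabp4, a fatty-acid binding protein gene also expressed by macrophages, was detected in the gene table, at 34.5 ± 4.72 TPM, and Adipoq, Lep, Plin1 and Cidec held 0 counts. In the second kind of table Plin1, a lipid droplet coat gene, was detected as well, with 66.5 and 81.8 counts or 1.08 and 1.36 TPM, and Adipoq, Lep and Cidec again held 0. Of 5 platelet and megakaryocyte markers 3 were detected, beside 46.7% of protein-coding genes. Their median was 1.575 TPM, beside 0.705 TPM over all protein-coding genes. That list summed to 17.6 TPM in replicate 1 and 6.87 TPM in replicate 2, and its leading gene Pf4, platelet factor, held 28 and 12 counts. In the gene table the list and Cd36 were both lower in replicate 2. Most of the fall of the list was that of Pf4, at 11.98 and 3.5 TPM in replicates 1 and 2. Itga2b, an integrin gene, stood at 2.64 and 1.01 TPM, and Gp1ba, a platelet glycoprotein gene, was near level at 2.14 and 2.06 TPM. In the second kind of table the list summed to 13.8 TPM in replicate 1 and 15.2 TPM in replicate 2, while Cd36 stood at 49.9 and 44.4 TPM. Nuclear protein-coding genes as a whole held 25.2% and 37.1% of that table's TPM in replicates 1 and 2. Rescaled over those genes, Cd36 stood at 198 and 120 in replicates 1 and 2 of that table. The list sum was not rescaled, but it rose by a smaller factor than the share of those genes. Relative to those genes the list was thus also lower in replicate 2. The part of platelet RNA in the Cd36 level was not tested. No platelet marker was at 0 in both replicates. Of 5 dendritic cell markers 2 were detected, Batf3 at 6.61 and 4.04 TPM and Zbtb46 at 1.47 and 1.67 TPM, both transcription factor genes.

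Cd68, a heavily glycosylated protein of late endosomes related to the LAMP family, was the smallest gene of the set. It lies at chr11:69664213-69666153, minus strand (ENSMUSG00000018774.13), spans 1.94 kb and has 6 exons. Cd68 held 443 and 598 counts and stood at 44.6 and 39.7 TPM, a mean of 42.2 ± 3.47 TPM and rank 1496. Its coding transcripts held 99.4% ± 0.862 of the counts, most of them on Cd68-201 (418 and 566). Eif4a1, a translation initiation factor gene on the same strand, ends 782 bases upstream of Cd68 and held 2928 and 4034 counts. Of the 4 LAMP family genes 2 were detected, Lamp2 at 99.5 ± 0.255 TPM and Lamp1 at 69.0 ± 2.13 TPM, both major lysosomal membrane proteins, while Lamp3 and Lamp5 held 0 counts. Both detected LAMP genes were above Cd68 in each replicate.

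Olr1 encodes the lectin-like receptor of oxidised lipoprotein, best known in endothelium. It lies at chr6:129485244-129507165, minus strand (ENSMUSG00000030162.14), and held 1 count in replicate 1 and 0 in replicate 2, or 0.03 TPM and 0 TPM. The exact Poisson 95% interval ran from 0.0253 to 5.57 counts in replicate 1 and up to 3.69 counts in replicate 2. The second transcript table gave Olr1 62.9 and 76.9 counts, or 0.783 and 0.990 TPM. Olr1 thus stayed below 1 TPM in both kinds of table, and its count depended on which table was read. Its posterior mean TPM, a further value deposited in the gene table, was 1.86 and 1.3 in replicates 1 and 2.

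Adgre1 (ENSMUSG00000004730.15, chr17:57358691-57483527, plus strand) was the third highest gene of the set. It held 1982 and 2413 counts and stood at 100.3 and 70.1 TPM in replicates 1 and 2, a mean of 85.2 ± 21.3 TPM and rank 506. All 5 annotated transcripts are coding, and most reads were on Adgre1-202 (1437 and 2070 counts), with 499.7 and 303 on Adgre1-201. Of its relatives, Adgre5, the CD97 gene, stood at 41.1 ± 14.0 TPM and Adgre4 at 0.84 ± 0.24 TPM, and only the first was detected in both replicates.

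In order of mean TPM the genes ran Stab1, Lrp1, Adgre1, Msr1, Cd68, Cd36, Scarb1, Stab2, Marco and Olr1. The replicates of Cd68 and Cd36 overlapped, as did those of Cd36 and Scarb1 and of Scarb1 and Stab2. Every other pair of neighbours was apart in both replicates of the gene table, Marco and Olr1 on 6 counts or fewer per library. In the second transcript table Msr1 and Cd68 overlapped, as did Marco and Olr1, while Scarb1 and Stab2 were apart. With counts divided by the length of the longest coding transcript, a scale added after seeing the data, Stab2 was set well apart from its neighbour. On that scale Stab2 stood at 4.65 ± 1.42 counts per kb, scaled to library depth, against 21.1 ± 5.59 for Cd36 just above it. Stab2-205, Stab2-206 and Stab2-207 are short beside Stab2-201, and retained-intron transcripts held 52.2% ± 5.87 of the TPM of Stab2 with 5.96% ± 1.501 of its counts.

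Retained-intron transcripts were annotated for 5 of the 10 genes, and the shares of counts they held were widely spread. In order these were 78.4% for Scarb1, 31.1% for Msr1, 28.1% for Stab1, 5.96% for Stab2 and 5.70% for Lrp1. Over 5042 protein-coding genes with such a transcript and at least 100 counts in each replicate the median was 31.2%, with quartiles of 12.5% and 55.7%. Scarb1 lay at the 92.1st percentile of those genes, Msr1 and Stab1 near the middle at the 49.8th and 46.5th, and Stab2 and Lrp1 low at the 13.8th and 13.1st. The share describes how reads were assigned to annotated models, and intron reads outside those models were not counted.

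**Figure D4:**
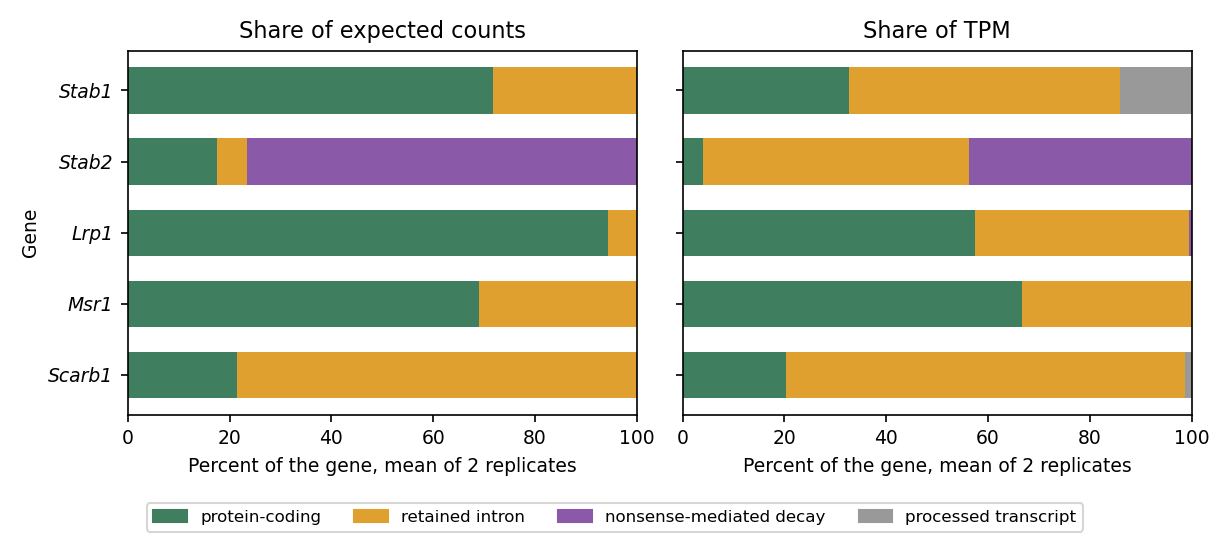
Share of each gene's expected counts (left) and TPM (right) held by each class of annotated transcript, as the mean of 2 replicates in percent, for the 5 genes with retained-intron transcripts. Retained-intron transcripts of Lrp1 hold 5.70% of counts and 42.0% of TPM, and those of Stab2 hold 5.96% of counts and 52.2% of TPM. Those of Stab1 hold 28.1% of counts and 53.3% of TPM.

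The receptors were lower in replicate 2 than in replicate 1. On TMM-scaled counts, which correct for library size and composition, the log2 ratio of replicate 2 over replicate 1 was -0.76 for Stab2, -0.67 for Cd36, -0.50 for Lrp1, -0.44 for Stab1, -0.29 for Msr1, -0.22 for Adgre1, -0.18 for Scarb1 and -0.07 for Cd68. All 8 genes averaging 50 counts or more were below 0, as were 48.1% of all genes with that many counts. Cd68 turned to 0.06 when scaled by library totals alone. That scaling put the median of all genes at 0.14 and the members' median at -0.24. Their median was -0.36, beside 0.01 over all 10984 genes with that many counts, of which 6.15% lay below the members' median. None of the 8 passed 2-fold, as 0.373% of all genes did, and 2 (Stab2 and Cd36) passed 1.5-fold, as 3.4% did. Among genes whose mean count was within 2-fold of the member's, Cd36 lay at the 0.297th percentile of 3029 genes, Stab2 at the 0.455th of 3954 and Stab1 at the 4.17th of 24, while Lrp1 was the lowest of 26.

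**Figure D5:**
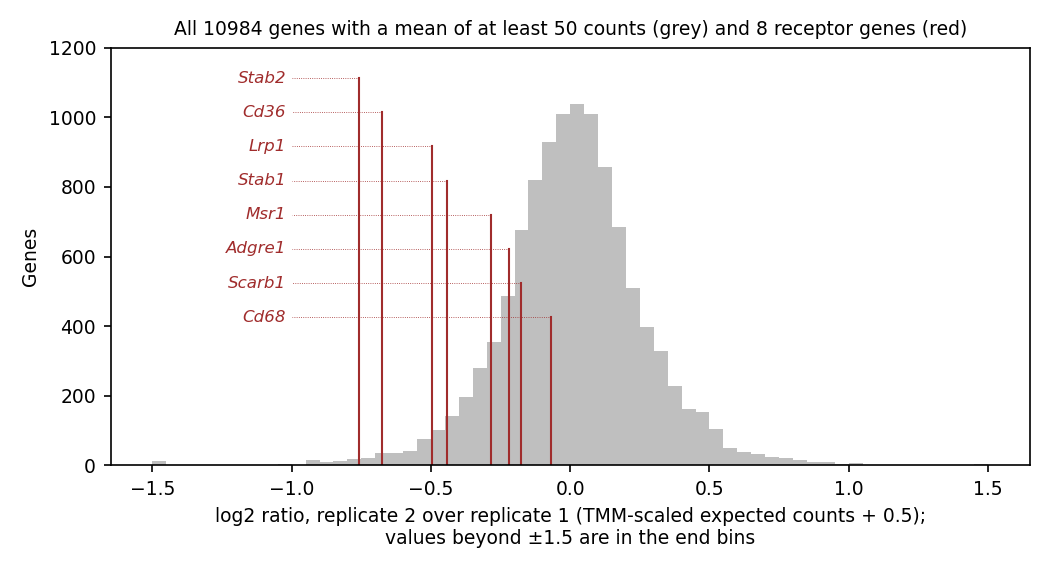
Histogram of the log2 ratio of replicate 2 over replicate 1 for 10984 genes averaging 50 counts or more (grey, genes per bin), with red lines for 8 receptor genes. The receptors run from -0.76 (Stab2) to -0.07 (Cd68), all left of the median of all genes at 0.01 (Cd68 turns to 0.06 under library totals, where that median is 0.14).

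In TPM, all 10 genes were lower in replicate 2, as were 61.0% of 9109 protein-coding genes with at least 50 counts. Apoe and Cd5l, named above, were also lower in replicate 2, at 68.4 against 115 TPM and 30.9 against 47.1 TPM in replicate 1. Mrc1 was level, at 116 TPM in replicate 2 and 115 TPM in replicate 1. The replicates also differ in RNA input, and input, culture and library cannot be told apart with 1 library each. With 1 library on each side there is no test of these ratios.

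The second transcript table, made from the same reads by another route, gave a lower mean TPM for Stab1 and Lrp1 and more counts for all 10 genes. It held more counts in all, 19200416 against 10970767 in replicate 1 and 24693077 against 14207280 in replicate 2. The median log2 ratio of counts, second over first, was 0.90 over the 8 members averaging 50 counts or more and 0.78 over protein-coding genes. Stab1 stood at 440 and 506 TPM in the second transcript table, against 878 and 636 TPM in the gene table. Lrp1 stood at 230.3 and 282 TPM, against 369 and 263 TPM. On deposited TPM the change from table to table was thus in 1 direction in both replicates for Stab1 and not for Lrp1. Rescaled over nuclear protein-coding genes, both genes were lower in the second table in both replicates. Those log2 ratios were -0.94 and -0.92 for Stab1 and -0.63 and -0.49 for Lrp1. On deposited TPM the replicates stood in reverse order in the second table for Stab1, Lrp1, Adgre1, Msr1, Cd68, Scarb1 and Olr1. Cd36, Stab2 and Marco were lower in replicate 2 in both. Nuclear protein-coding genes as a whole held 25.2% and 37.1% of the TPM of the second table in replicates 1 and 2, against 26.2% and 24.6% of that of the gene table. With TPM rescaled over those genes, all 10 genes were lower in replicate 2 in the second table too. Stab1 stood at 1744 and 1364 on that scale, and Lrp1 at 912 and 761.

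On the deposited TPM, 2 members (Marco and Olr1) were past 2-fold higher in the second table in both replicates, beside 24.2% of 17676 protein-coding genes with a read, and none was past 2-fold lower, beside 0.158%. Rescaled over nuclear protein-coding genes, the same 2 members were past 2-fold higher, beside 25.7%, and again none was past 2-fold lower, beside 0.577%. On that rescaled measure the log2 ratio of second over first table was -0.93 ± 0.01 for Stab1 and -0.56 ± 0.10 for Lrp1 (SD, n = 2). For the other 6 detected genes it lay between -0.27 (Adgre1) and 0.24 (Scarb1), beside a median of -0.10 over protein-coding genes with at least 50 counts. Stab1 and Lrp1 kept the first and second places in both kinds of table, and Stab1 exceeded Lrp1 by 2.40 times in mean TPM in the first and by 1.85 times in the second.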

How the data were processed

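The authors deposited, for each of 2 libraries, a gene table and 2 transcript tables. Per the deposited notes, gene tables and first transcript tables come from transcriptome alignments and second transcript tables from the reads and an index, all with GENCODE M21 on mm10. The tools used, their versions and strandedness were not given in the sources used here. Expected counts, as deposited, share out reads that match several places and need not be whole. TPM, as deposited, are those counts over effective length, brought to the same total in each table. Another deposited value, a posterior SD per count, entered no result.

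The members and gene lists were chosen with earlier results of these data known. A phage control entry (phiX, 0.338% and 0.270% of gene table counts), spike-in entries and numbered entries were left out of library totals. Detection was at 1 TPM in both replicates. For ratios between replicates, expected counts were rounded, scaled with TMM (edgeR 4.0.16 in R 4.3.3) and raised by 0.5; DESeq2 1.42.0 size factors were an alternative. Ratios between tables used TPM plus 0.1. Counts per kb used the longest annotated coding transcript. The ratio step was tested on simulated data and returned the log2 changes put in. Other steps ran in Python 3.11.15 (pandas 2.3.3, numpy 2.4.6, scipy 1.17.1, matplotlib 3.10.9).

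All members were named. From each list of related genes the 4 highest by mean TPM and up to 3 with 0 counts in both replicates were named, with the 2 genes next above and below Stab1, transcripts with 10% or more of a gene's counts and overlapping genes. The marker genes named, the short transcripts Stab1-202, Stab2-202, Stab2-203, Stab2-204, Stab2-206 and Stab2-207, and the neighbour Eif4a1 were named after values were seen. A listed gene is not reported here and was left out of its list's counts and median. Promoters were read from RefSeq windows (GRCm38.p6). The planned comparison of member proteins was not run. Poisson intervals describe counting error only, as PCR copies of a molecule were not marked.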

Additional observations from a re-analysis of the deposited data

How the results depend on the processing

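The members' median TPM moved beyond its replicate spread only in the second transcript table (52.7 TPM), and ran from 32.7 to 45.9 TPM with 1 replicate left out (a shift that is always under the SD of 2 values). The order kept 7 of 10 places on RPM and 8 on posterior mean TPM, in the second table, on counts per kb of coding transcript and with either replicate left out. The number of members detected was 8 under every alternative run. Detection was not run on posterior mean TPM, on which Olr1 stood above 1 at 1.86 and 1.3 in replicates 1 and 2. At 1.5-fold instead of 2-fold, 2 members differed between replicates. The median log2 ratio of second over first table was 0.25 on deposited TPM, -0.02 when rescaled, 0.90 on counts, and -0.09 to 0.59 with 1 replicate left out. The median retained-intron share was 52.2% of TPM and 23.7% of counts in the second table, and 26.9% to 29.3% with 1 replicate left out. With GGAA in place of GAGGAA, 7 windows matched, beside 96.0% of all windows. Replicates left out aside, 7 of 30 alternative levels of single members moved beyond the replicate SD, as did 9 of 10 retained-intron shares. Of 40 alternative ratios between replicates, 0 moved by more than the SD of that ratio over all genes (0.29). Depth limits Marco and Olr1, at 6 counts or fewer per library in the gene table.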

Other observations

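Genes that handle lipid after its uptake were all detected, 10 of 10, with a median of 111 TPM in replicate 1 and 97.5 TPM in replicate 2. The highest were Plin2, a lipid droplet coat gene, at 276 and 180.2 TPM, and Abca1, a cholesterol exporter gene, at 189.8 and 135.7 TPM. Both were lower in replicate 2. Soat1, which esterifies cholesterol, stood at 149.7 and 163 TPM, and Lpl, lipoprotein lipase, at 161 and 118 TPM in replicates 1 and 2. Soat1 ran opposite to the other 3. On the level scale their means of 228 ± 67.9 TPM for Plin2, 163 ± 38.3 for Abca1, 156 ± 9.52 for Soat1 and 140 ± 29.98 for Lpl lay between those of Lrp1 and Adgre1.

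All 12 listed transcription regulators of macrophages and of lipid metabolism were detected, and their median was 27.2 TPM in replicate 1 and 26.0 TPM in replicate 2. Maf was highest at 84.3 ± 7.40 TPM, followed by Nfe2l2, a regulator of the oxidative stress response, at 70.6 ± 8.70 TPM, Nr1h2, an oxysterol receptor gene, at 53.2 ± 4.68 TPM, and Tfec, a relative of Mitf, at 40.9 ± 2.09 TPM. Nr1h2 was lower in replicate 2, and Maf, Nfe2l2 and Tfec were higher there.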
